A study of Mus musculus with 6 samples.

Results

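The genes described here are 7 mouse genes of inhibitory immune checkpoints, chosen by name, of the 32285 genes in each count table. They are the receptors Pdcd1 (encoding PD-1), Lag3, Havcr2 (encoding TIM-3) and Tigit, the PD-1 ligands Cd274 (encoding PD-L1) and Pdcd1lg2 (encoding PD-L2), and Tox, a transcription factor of exhausted T cells. Their UMIs, the counts of single captured mRNA molecules, were followed across cell types of the lung in each of 6 mice. All 6 were 12-week-old male mice of genotype hCTLA4, in which human exons of CTLA4 replace the mouse ones on a C57BL/6 background, so that ipilimumab, an antibody to human CTLA4, can bind. All had lung fibrosis from bleomycin, given 2 times at 1.25 U per kg and 2 weeks apart. They then received 5 mg per kg of antibody 2 times a week for 4.5 weeks, starting on day 21 after the last bleomycin dose. In 3 mice the antibody was IgG1 (labelled control), and in 3 it was ipilimumab (labelled anti-CLTA4 mAb). Every mouse gave 1 10x Genomics 3' library, made from cells of its right lung. There was no lung without bleomycin, and the comparison between antibodies asks which genes differed with CTLA4 blockade in a lung that was already fibrotic.

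PD-1 is a receptor on antigen-experienced T cells that dampens signalling from the T cell receptor and CD28 when it binds PD-L1 or PD-L2 on another cell. LAG-3, TIM-3 and TIGIT are further inhibitory receptors that can accumulate on the same T cells under lasting stimulation, and TIM-3 is also found on monocytes, macrophages and dendritic cells. PD-L1 is made by myeloid cells, endothelium and many other cells and is induced by interferon gamma, PD-L2 is more restricted to dendritic cells and macrophages, and TOX keeps chronically stimulated T cells in the exhausted state and is needed for development of CD4 T cells in the thymus.

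After barcodes were called and low-quality cells and doublets removed, 24260 cells were used, from 3269 to 4349 per mouse, with a median of 5905 to 7885 UMIs per cell. Any pair of libraries shared from 0 to 8 cell barcodes. One library stood apart: called cells held 78.9% of the UMIs in ipilimumab replicate 1 and from 92.4% to 93.1% in the others. Some results are therefore also given without it. Cells were placed in gates by UMIs of fixed marker genes, none of which is a member, and the members' UMIs were summed per gate and mouse. Levels are CPM, in which each sum is scaled by all UMIs of the gate. A gate sum cannot tell more cells with a transcript from more transcript per cell, so shares of cells with a UMI are given too. For these, each cell with at least 2000 UMIs was thinned to 2000 UMIs, and cells with fewer were left out.

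The T cell gates required at least 2 UMIs of Cd3e, Cd3d, Cd3g and Trac. They were divided into 1851 Cd8 T cells (250 to 370 per mouse), 1503 Cd4 T cells without Foxp3 (215 to 303), 151 Foxp3 T cells (17 to 37), which are regulatory T cells by their defining transcription factor, and 1235 T cells with no UMI of either coreceptor (156 to 265). Another 108 T cells (14 to 24 per mouse), with UMIs of a CD8 coreceptor gene together with Cd4 or Foxp3, formed a gate of other T cells. Cells of the Cd8 and Cd4 gates were further divided into naive-like cells (markers including Ccr7 and Lef1) and antigen-experienced cells (Ccl5, S100a4, Cxcr6). Summed T cell markers lay between 1325 and 1521 CPM in Cd8 T cells and between 1522 and 1735 CPM in Cd4 T cells, where the pan-myeloid markers Lyz2, Csf1r, Cd68, Fcer1g and Tyrobp summed to at most 102 CPM. A gene was called between groups at an edgeR adjusted p under 0.05, over all genes tested, and an absolute log2 fold change over 0.3.

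On the GRCm38 annotation the members lie on 6 chromosomes. Pdcd1 is on chromosome 1 (94038305 to 94052553, minus strand), Tox on chromosome 4 (6686353 to 6991557, minus), Lag3 on chromosome 6 (124904361 to 124911705, minus), Havcr2 on chromosome 11 (46454935 to 46481255, plus) and Tigit on chromosome 16 (43648867 to 43664146, minus). The PD-1 ligands are neighbours on chromosome 19, with Cd274 at 29367455 to 29388095 and Pdcd1lg2 at 29410919 to 29471161, both on the plus strand and 22824 bases apart. Cd274, Pdcd1lg2 and Tox each overlap an annotated antisense gene (AC119228.1, A930007I19Rik and Gm11802). Tox spans 305 kb, and whether reads in introns were counted is not given in the sources used here, so levels are compared between cell types and not between genes.

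Cd274, Pdcd1lg2 and Havcr2 were the members that were higher together in nonclassical than in classical monocytes, and the 250 bases before their RefSeq starts (GRCm38.p6) are shown for that reason. They lie at chr19:29367188-29367437, chr19:29410669-29410918 and chr11:46454681-46454930, all on the plus strand. RefSeq promoters were at hand for 5 of the 7 members, namely these 3, Pdcd1 and Tigit.
Cd274: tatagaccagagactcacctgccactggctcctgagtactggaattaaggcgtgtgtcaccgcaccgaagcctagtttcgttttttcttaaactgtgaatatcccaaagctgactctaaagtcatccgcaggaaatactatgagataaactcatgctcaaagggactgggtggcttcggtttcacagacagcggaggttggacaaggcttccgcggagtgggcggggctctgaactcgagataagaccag
Pdcd1lg2: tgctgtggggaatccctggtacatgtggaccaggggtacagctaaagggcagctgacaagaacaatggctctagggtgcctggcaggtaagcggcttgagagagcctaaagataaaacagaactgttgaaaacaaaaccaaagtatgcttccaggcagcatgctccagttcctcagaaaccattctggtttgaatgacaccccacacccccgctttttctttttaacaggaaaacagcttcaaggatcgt
Havcr2: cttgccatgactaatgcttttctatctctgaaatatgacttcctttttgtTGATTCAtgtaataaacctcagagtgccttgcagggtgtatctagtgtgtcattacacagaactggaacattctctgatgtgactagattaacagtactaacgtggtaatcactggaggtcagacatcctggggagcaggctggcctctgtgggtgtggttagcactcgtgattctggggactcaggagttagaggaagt
The capitals in Havcr2 mark the only match, 200 to 194 bases before the start, to 3 motifs searched on both strands of all 5 promoters. These were the interferon gamma activated site TTCNNNGAA, held by 7.02% of 32851 mouse promoters of this length, the interferon-stimulated element (GAAA, any 2 bases, GAAA), held by 2.98%, and the AP-1 site TGANTCA, held by 6.75%. The search covered these letters in these windows and says nothing of the factors.

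**Figure D1:**
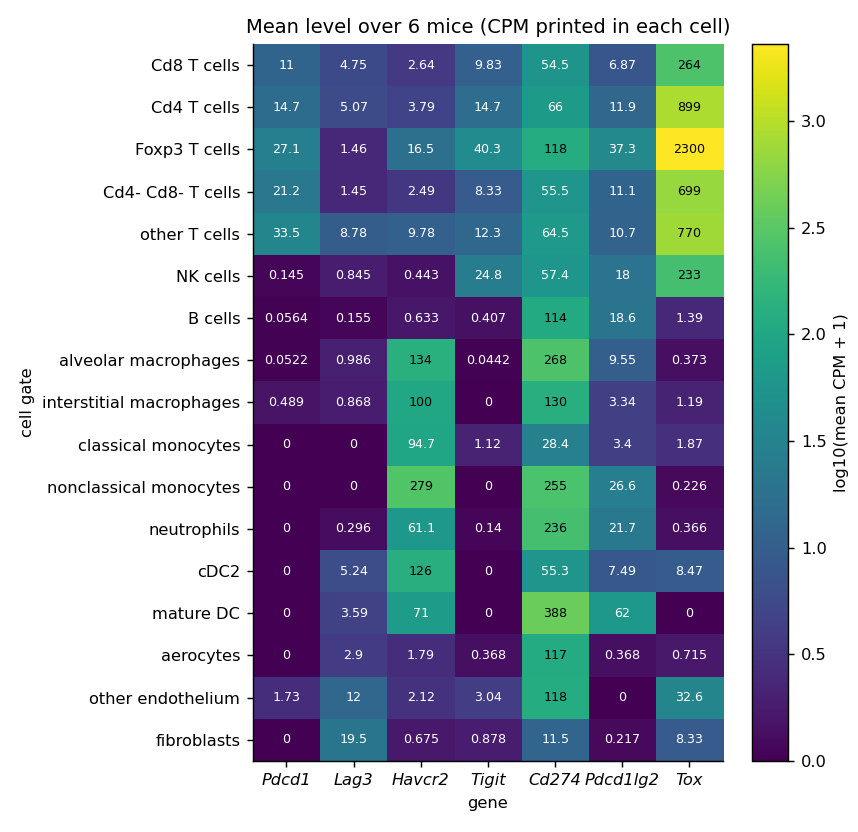
Mean level of each member over 6 mice in each cell gate, in CPM of the gate sum, with the value printed in each field and the gates as lines. Tox led in Foxp3 T cells (2300 CPM), Havcr2 in nonclassical monocytes (279 CPM) and Cd274 in mature dendritic cells (388 CPM), while Pdcd1 stayed at or under 33.5 CPM in each gate shown. Gates with under 5 cells in any mouse are not drawn.

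Pdcd1 mRNA was rare and was found in T cells and in group 2 innate lymphoid cells (ILC2). In NK cells it had 1 UMI in all, in B cells 3 UMIs and in nonclassical monocytes 0 UMIs. In Cd8 T cells the level was 4.68, 17.7 and 4.11 CPM in the IgG1 mice and 8.52, 9.83 and 21.3 CPM in the ipilimumab mice, so the groups overlapped. In Cd4 T cells it was 8.90, 9.14 and 8.97 CPM against 8.22, 23.0 and 29.7 CPM, with 2 ipilimumab mice above all IgG1 mice and replicate 1 below them. In the T cells without coreceptor UMIs it was 12.2, 19.4 and 9.57 CPM against 14.9, 24.0 and 47.0 CPM, again with overlap. The Foxp3 T cells held only 0, 3 and 4 UMIs in the IgG1 mice and 7, 14 and 19 in the ipilimumab mice, or 0, 13.1 and 19.5 CPM against 17.7, 53.1 and 59.2 CPM. These groups overlapped as well, and Pdcd1 did not pass the filter on low counts in this gate alone. It thus has no fold change between antibodies there.

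ILC2, tissue lymphocytes without a T cell receptor that make type 2 cytokines, were too few for a test, with 35 cells in all and at least 5 cells in only 3 mice, all given ipilimumab. In these 3 mice Pdcd1 was at 191, 171 and 136 CPM, above its highest value in the 4 T cell gates just given (59.2 CPM in Foxp3 T cells). The antigen-experienced part of the Cd8 T cells, given below, overlapped with this range. In the gate of other T cells Pdcd1 ran from 0 to 116 CPM, with a mean of 33.5 CPM. Over all 6 mice 19 of the 35 cells held a Pdcd1 UMI, 40 UMIs in all, and 3 of these cells came from IgG1 mice. Tox was at 836, 790 and 853 CPM in the same 3 mice, while Lag3 and Havcr2 had 0 UMIs in the 35 cells and Tigit 2 UMIs. The gate allowed no UMI of Cd3e, Cd3d or Trac. Its summed T cell markers, 0 to 23.9 CPM, therefore came from Cd3g alone and are no check of the gate.

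The call rule found no member changed by ipilimumab in any of these T cell gates. It also called 0 of 9831 genes tested in Cd8 T cells, 0 of 9363 in Cd4 T cells, 0 of 4034 in Foxp3 T cells and 0 of 8820 in T cells without coreceptor UMIs (0% in each), and at an unadjusted p under 0.05 these counts were 465, 591, 233 and 777. Of the members, 6, 6, 3 and 5 passed the filter in these gates. DESeq2 called no member there either. The log2 fold change of Pdcd1 was 0.68 in Cd8 T cells (SE 0.50, edgeR adjusted p = 0.964), 1.16 in Cd4 T cells (SE 0.39, adjusted p = 0.684) and 1.11 in T cells without coreceptor UMIs (SE 0.40, adjusted p = 0.461). Without ipilimumab replicate 1, the library with most UMIs outside cells, the Cd4 value was 1.55 (SE 0.25, edgeR adjusted p = 0.0309) and passed the rule. Without IgG1 replicate 2 the Cd8 value moved to 1.62 (adjusted p = 0.226), and without ipilimumab replicate 3 to 0.15. The value of the T cells without coreceptor UMIs moved to 0.52 without ipilimumab replicate 3. The difference between the effects in Cd8 and Cd4 T cells was -0.37 (SE 0.48, adjusted p = 0.944; 0 of 10182 genes called, 0%), and it turned to 0.47 without IgG1 replicate 2. Between Foxp3 and Cd4 T cells it was 0.67 (SE 0.73, adjusted p = 0.998; 0 of 8752 genes called, 0%), which became 0.29 when IgG1 replicate 1 was left out and 1.26 when IgG1 replicate 3 was. The Foxp3 part of this difference rests on the few UMIs that did not pass the filter in that gate alone. It is therefore no measure of an effect in Foxp3 T cells.

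**Figure D2:**
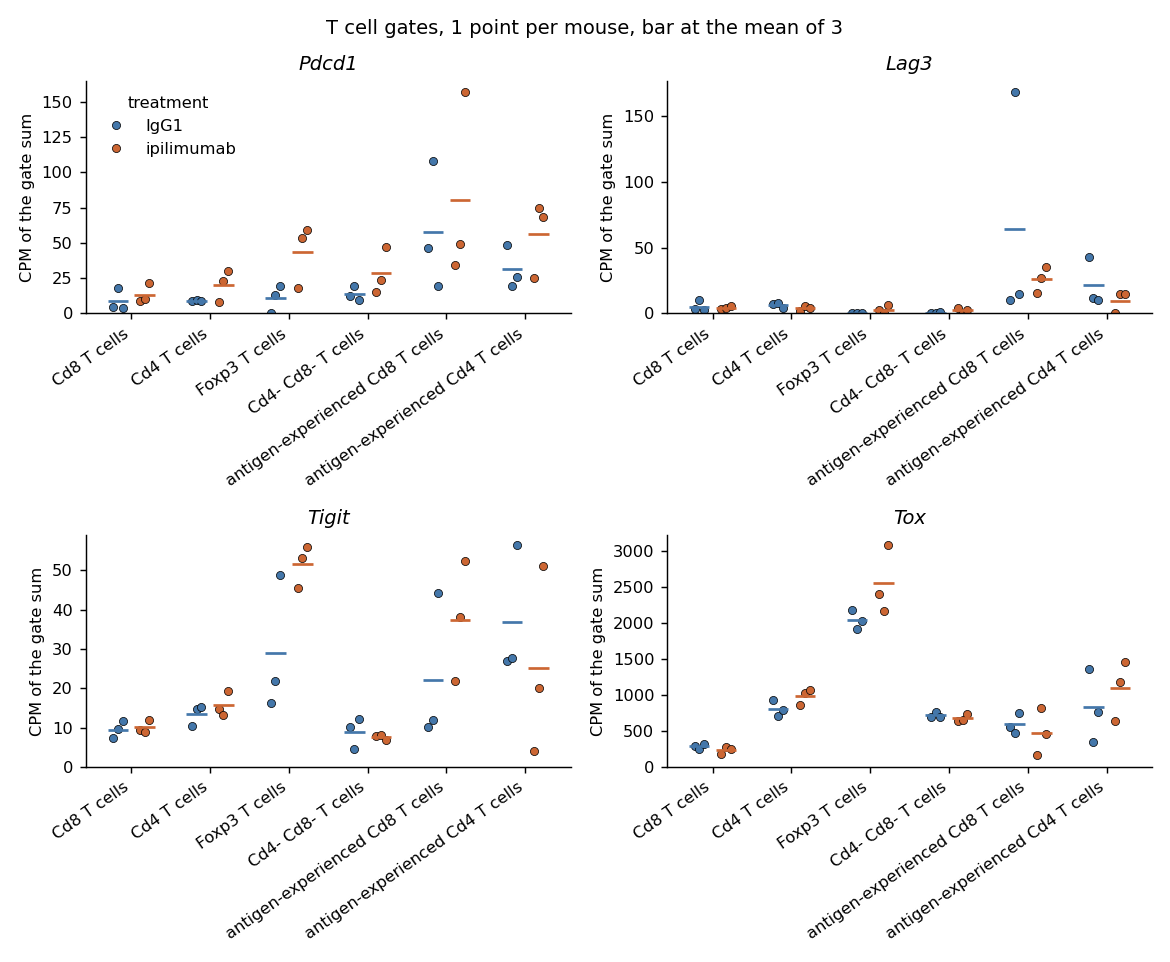
Levels of members in T cell gates in CPM of the gate sum, 1 point per mouse with a bar at the mean of 3, IgG1 beside ipilimumab. The Pdcd1 points of both groups overlap in each gate shown, and the Tox points order the gates in every mouse with Foxp3 T cells (1923 to 3086 CPM) above Cd4 T cells (710 to 1069 CPM).

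Few T cells carried a Pdcd1 UMI. After thinning to 2000 UMIs the share of Cd4 T cells was 0.844%, 1.86% and 1.68% in the IgG1 mice and 2.03%, 3.44% and 4.64% in the ipilimumab mice. These groups did not overlap, and the exact permutation p (two-sided) was 0.1, the smallest that 3 mice against 3 allow. After thinning to 1000 UMIs the groups overlapped, at 0.422%, 0.465% and 1.26% against 0.407%, 1.89% and 2.31% (exact permutation p = 0.4), and the difference in means fell from 1.91 to 0.821 percentage points. The share of Cd8 T cells was 0.310%, 1.61% and 0.813% against 1.68%, 1.60% and 5.19% (exact permutation p = 0.2). In B cells, taken as the background, it was 0.0124% on average, at a median depth of 5191.5 to 6617 UMIs per cell where Cd4 T cells had 7418 to 8980 and Cd8 T cells 8723 to 11267.5. The shares in T cells were thus far above that of B cells. The makeup of the Cd4 gate also differed between antibodies. Summed antigen-experienced markers there were 883, 790 and 730 CPM in the IgG1 mice and 1698, 1080 and 1604 CPM in the ipilimumab mice. Within each group the mouse with the highest sum had the lowest share with a Pdcd1 UMI. Counts of antigen-experienced cells gave another order, at 22, 26 and 22 of 237, 215 and 238 Cd4 T cells in the IgG1 mice. In the ipilimumab mice they were 30, 51 and 58 of 246, 264 and 303. By these counts, the mouse with the most such cells in each group had the highest share with a Pdcd1 UMI. Relative to the size of the gate, however, ipilimumab replicate 2 had slightly more such cells than replicate 3 and a lower share with a Pdcd1 UMI. The gate held 70 antigen-experienced cells in the IgG1 mice and 139 in the ipilimumab mice, and the part of this makeup in the Pdcd1 values was not tested.

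Within T cells, Pdcd1 was higher in the antigen-experienced than in the naive-like cells of the same mice. Among Cd8 T cells it was 46.1, 108 and 19.6 CPM (IgG1) and 34.5, 49.0 and 157 CPM (ipilimumab) in antigen-experienced cells, and 0 to 2.49 CPM in naive-like cells. Its log2 fold change was 6.21 (SE 0.55, edgeR adjusted p = 5.79e-11). Lag3 (3.92, SE 0.57), Tigit (2.08, SE 0.41) and Tox (0.73, SE 0.16) were also higher, so 4 of 5 members tested were called, where 12.9% of 7498 genes were called higher. Pdcd1 and Lag3 passed the filter on low counts through the antigen-experienced cells alone. Counts of members called between gates are therefore no support by themselves. Lag3 and Tigit did not pass this filter without ipilimumab replicate 1, where Pdcd1 and Tox remained called. Among Cd4 T cells Pdcd1 was 48.4, 19.7 and 25.7 CPM (IgG1) and 25.1, 74.9 and 68.1 CPM (ipilimumab) in the antigen-experienced cells and 0 to 4.6 CPM in the naive-like cells, a log2 fold change of 4.57 (SE 0.46, adjusted p = 1.7e-07). Cd274 was higher too (1.07, SE 0.16, adjusted p = 3.67e-05), and Tox was not called (-0.24, SE 0.17, adjusted p = 0.32). Thus 2 of 3 members tested were called, where 16.9% of 6952 genes were called higher. Here too Pdcd1 passed the filter through the antigen-experienced cells alone.

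Between antibodies, Pdcd1 in antigen-experienced Cd4 T cells had a log2 fold change of 0.93 (SE 0.49, adjusted p = 0.644), and no member was called there among the 11 of 4094 genes that were (0.269%). In antigen-experienced Cd8 T cells 0 of 3536 genes were called (0%) and 127 had an unadjusted p under 0.05. Pdcd1 did not pass the filter in these 11 to 50 cells per mouse, where ipilimumab replicate 3 (157 CPM) and IgG1 replicate 2 (108 CPM) were the highest.

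Lag3, a receptor for MHC class II that restrains T cells, was near the detection limit. In Cd8 T cells it had 86 UMIs in all, at 3.01, 10.3 and 2.29 CPM in the IgG1 mice and 2.95, 4.26 and 5.67 CPM in the ipilimumab mice. In Cd4 T cells it was 6.93, 8.13 and 3.85 CPM against 2.05, 5.52 and 3.96 CPM. Both sets overlapped, and the log2 fold change in Cd4 T cells was -0.70 (SE 0.44, adjusted p = 0.855). A single mouse carried much of the Lag3 signal of the antigen-experienced Cd8 T cells, since IgG1 replicate 2 reached 168 CPM from 14 UMIs in 2 cells while the other mice lay between 10.2 and 34.9 CPM. The mean of these cells was 45.1 CPM. Of the 17 gates before the division into naive-like and antigen-experienced cells, the highest Lag3 mean was in fibroblasts, at 19.5 CPM, with 15.3, 17.7 and 16.9 CPM in the IgG1 mice and 26.8, 13.3 and 27.2 CPM in the ipilimumab mice. That level came from 5 to 27 UMIs per mouse and was above the 0 to 3.36 CPM of the ambient RNA, the profile of barcodes without cells. Other endothelium followed at 12.05 CPM and overlapped with it. Plasmacytoid dendritic cells, which make type I interferon, were only 22 cells but held 53 Lag3 UMIs, at 168, 247 and 86.0 CPM in the 3 mice with at least 5 such cells.

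Tigit, a receptor for PVR and nectins, was highest in Foxp3 T cells and next in NK cells. In Foxp3 T cells it was 16.3, 21.9 and 48.8 CPM in the IgG1 mice and 45.5, 53.1 and 56.1 CPM in the ipilimumab mice, and in NK cells 21.8, 24.3 and 21.2 CPM against 19.3, 30.7 and 31.6 CPM. The groups overlapped in both gates, with log2 fold changes of 0.75 (SE 0.45, adjusted p = 0.873) and 0.30 (SE 0.24, adjusted p = 0.91), and 0 of 8248 genes were called in NK cells (0%; 489 with an unadjusted p under 0.05). Cd4 T cells had 10.4, 14.7 and 15.4 CPM against 14.8, 13.3 and 19.4 CPM, a log2 fold change of 0.22 (SE 0.25, adjusted p = 0.934). In order of mean level, Foxp3 T cells (40.3 CPM), NK cells (24.8), Cd4 T cells (14.7) and Cd8 T cells (9.83) ran down the list, and each overlapped with its neighbour over the 6 mice.

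Havcr2 was highest in myeloid cells of these lungs. It reached 330, 251 and 272 CPM in the nonclassical monocytes of IgG1 mice and 292, 293 and 235 CPM in those of ipilimumab mice, and its range over 6 mice there did not overlap with that of alveolar macrophages, the next gate (113 to 158 CPM). After thinning, 36.9% of nonclassical monocytes and 0.264% of Cd8 T cells held a UMI, against 0.137% of B cells, so the share in Cd8 T cells was near the background. The cDC1, dendritic cells that cross-present antigen, were still higher at 359 CPM (SD 85.9), from 287 to 500.4 CPM in the 5 mice with at least 5 such cells, 51 cells in all. cDC2 (126 CPM), interstitial macrophages (100.1 CPM) and classical monocytes (94.7 CPM) followed and overlapped with one another. Foxp3 T cells averaged 16.5 CPM, from 0 to 40.5 CPM. After thinning, 5.88%, 4.55% and 0% of these T cells held a Havcr2 UMI in the IgG1 mice. In the ipilimumab mice it was 0%, 0% and 8.11%, and each mouse had only 17 to 37 such cells. Neutrophils had 41.4, 48.5 and 53.3 CPM in the IgG1 mice and 59.2, 73.8 and 90.4 CPM in the ipilimumab mice. Every ipilimumab mouse was above every IgG1 mouse, as for 12.8% of the genes tested in neutrophils, and the log2 fold change of 0.51 (SE 0.20, adjusted p = 0.37) was not called. Classical monocytes were alike, at 78.5, 83.3 and 84.1 CPM against 106, 101 and 115 CPM, with no overlap (4.7% of genes tested) and a log2 fold change of 0.41 (SE 0.18, adjusted p = 0.894).

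In classical monocytes 1 of 6214 genes was called (0.0161%), which was no member, and in neutrophils 0 of 7036 (0%; 868 with an unadjusted p under 0.05). The neutrophil gate also held alveolar macrophage markers, which summed to 321, 157 and 229 CPM in the neutrophils of IgG1 mice and 301, 466 and 363 CPM in those of ipilimumab mice. The ambient RNA held 49.0, 62.7 and 25.3 CPM of Havcr2 in the IgG1 libraries and 30.2, 50.5 and 49.2 CPM in the ipilimumab libraries. The Havcr2 levels in neutrophils of IgG1 mice lay within this range. The part of the macrophage markers and of ambient RNA in the Havcr2 values was not tested.

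Tox was by far most abundant in Foxp3 T cells. There it was 2180, 1923 and 2035 CPM in the IgG1 mice and 2403, 2174 and 3086 CPM in the ipilimumab mice, and after thinning 84.9 ± 9.75% (SD, n = 6) of the cells held a UMI, against 0.161% of B cells. In Cd4 T cells it was 932, 710 and 788 CPM against 861, 1035 and 1069 CPM, and in Cd8 T cells 293, 253 and 326 CPM against 178, 283 and 250 CPM. The ranges of Foxp3 and Cd4 T cells over the 6 mice did not overlap, nor did those of T cells without coreceptor UMIs (635 to 762 CPM) and Cd8 T cells, while Cd8 T cells and NK cells (160 to 326 CPM) did. Between antibodies Tox was not called in any T cell gate, with log2 fold changes of 0.31 (SE 0.18) in Foxp3, 0.28 (SE 0.13) in Cd4, -0.27 (SE 0.16) in Cd8 T cells and -0.08 (SE 0.11) in T cells without coreceptor UMIs, and edgeR adjusted p of 0.873, 0.773, 0.964 and 0.861. The effect in Cd8 T cells lay 0.57 below that in Cd4 T cells on the log2 scale (a difference of -0.57, SE 0.11, unadjusted p = 1.26e-04), which did not pass the adjustment over all genes (adjusted p = 0.225).

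In the T cells without coreceptor UMIs, the share with a Tox UMI after thinning was 55.7%, 55.2% and 56.1% in the IgG1 mice and 43.4%, 46.6% and 47.9% in the ipilimumab mice. The groups did not overlap (exact permutation p = 0.1), although their CPM did, and the shares overlapped after thinning to 1000 UMIs (exact permutation p = 0.3). Of the 7 members in each of the 4 T cell gates, 3 more pairs of gate and gene had shares that did not overlap. One was Pdcd1 in Cd4 T cells, given above, and the others were Havcr2 in Cd8 T cells (0% to 0.310% against 0.319% to 0.346%) and in T cells without coreceptor UMIs (0% in each IgG1 mouse against 0.431% to 1.15%), which are at most a few cells per mouse. These 2 pairs also overlapped after thinning to 1000 UMIs. By CPM, the groups did not overlap, in either direction, for 9.51% to 14.6% of the genes tested in the 4 gates. The share of cells was not computed for all genes.

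In single Cd4 T cells, Tox was found more often where Pdcd1 was. After thinning, 38 Cd4 T cells had a Pdcd1 UMI, and a Tox UMI was found in 85.8% of them on average over mice against 54.8% of the other Cd4 T cells. The share was higher in 6 of 6 mice (exact permutation p = 0.03125, the smallest that 6 mice allow; 0.3 adjusted over 24 pairs of gate and gene). For antigen-experienced Cd4 T cells, which are part of the same gate, the shares were 92.9% of 21 cells and 41.4%, also in 6 of 6 mice. In Cd8 T cells they were 59.4% of 33 cells and 31.3% (exact permutation p = 0.125). None of the 24 pairs passed the adjustment.

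Co-detection of the receptors themselves was rare after thinning. Only 6 of 1840 Cd8 T cells, 6 of 1500 Cd4 T cells, 1 of 151 Foxp3 T cells and 3 of 1202 T cells without coreceptor UMIs held UMIs of 2 or more of Pdcd1, Lag3, Havcr2 and Tigit after thinning. At this depth, cells with 1 receptor UMI cannot be told from cells with several receptors. In unthinned cells, which differ in depth, Lag3 was found in 20 of 96 Cd8 T cells with a Pdcd1 UMI and 33 of 1755 without. The share was higher in 6 of 6 mice (exact permutation p = 0.03125, not adjusted). After thinning these were 0 of 33 and 13 of 1807. No other receptor reached that p with Pdcd1 in unthinned cells. After thinning, at least 1 of the 4 receptors was found in 3.78 ± 0.405% (SD, n = 3) of the Cd4 T cells of IgG1 mice. In those of ipilimumab mice it was 7.01 ± 2.20%, with no overlap. The T cells without coreceptor UMIs did not overlap either (0.995% to 3.61% against 3.88% to 11.1%), while Cd8 T cells (2.48% to 4.82% against 3.70% to 7.61%) and Foxp3 T cells (4.55% to 16.7% against 9.38% to 24.0%) did. The differences between antibodies in these shares were not tested, and the shares were not computed at a lower depth. By CPM, 10.6% of single genes tested in Cd4 T cells did not overlap between antibodies, in either direction. In T cells without coreceptor UMIs it was 14.6%. At least 1 receptor was found in 20.3% of antigen-experienced and 1.82% of naive-like Cd8 T cells. Among Cd4 T cells it was found in 15.2% of antigen-experienced and 1.60% of naive-like cells.

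Cd274 was expressed far more widely than its receptor. Mature dendritic cells (Ccr7, Fscn1, Ccl22, Il4i1) had 446, 545 and 356 CPM in the IgG1 mice and 217, 340 and 424 CPM in the ipilimumab mice. Alveolar macrophages, the resident phagocytes of the airspace, had 247, 239 and 293 CPM against 290, 273 and 263 CPM. Neutrophils had 255, 181 and 301 CPM against 221, 220 and 240 CPM. In these 3 gates the groups overlapped, with log2 fold changes of -0.54 (SE 0.30, adjusted p = 0.554), 0.08 (SE 0.10, adjusted p = 0.925) and -0.21 (SE 0.17, adjusted p = 0.62). No gene was called in mature dendritic cells (0 of 3209, 0%; 329 with an unadjusted p under 0.05) or in alveolar macrophages (0 of 12153, 0%; 465 at that level).

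The ambient RNA held 220, 217 and 182 CPM of Cd274 in the IgG1 libraries and 231, 288 and 240 CPM in the ipilimumab libraries, about as much as alveolar macrophages. It was thus higher in each ipilimumab library than in each IgG1 library, the direction of the differences in nonclassical monocytes and endothelium given next, and its part in them was not tested. The fibroblasts of the same libraries had 0 to 21.1 CPM, and Cd8 T cells 46.9 to 61.3 CPM. The share of ambient RNA in each gate was not estimated. Interstitial macrophages (76.2, 170 and 185 CPM against 109, 132 and 109 CPM) and B cells (110, 96.1 and 174 CPM against 117, 92.9 and 92.4 CPM) overlapped between antibodies, at log2 fold changes of -0.28 (SE 0.34, adjusted p = 0.98) and -0.33 (SE 0.18, adjusted p = 0.702). There, 0 of 4928 and 0 of 11505 genes were called (0% in each; 238 and 822 with an unadjusted p under 0.05).

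**Figure D3:**
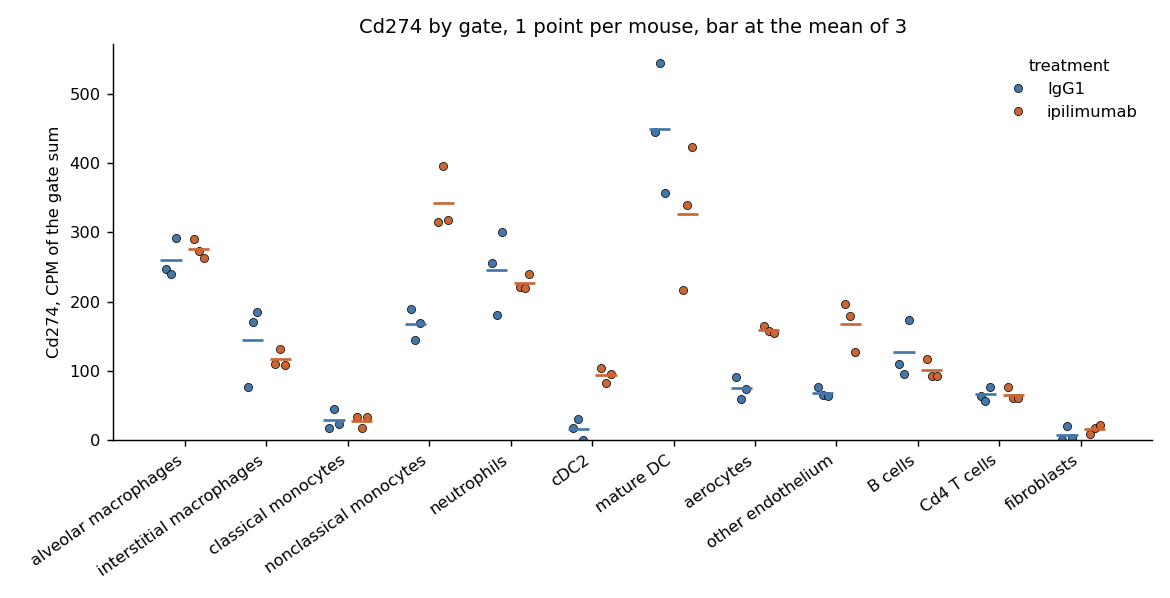
Cd274 by gate in CPM of the gate sum, 1 point per mouse with a bar at the mean of 3, IgG1 beside ipilimumab. The groups are apart in nonclassical monocytes (144 to 190 against 315 to 396 CPM) and in the endothelial gates, and they overlap in mature dendritic cells, alveolar macrophages and neutrophils.

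Nonclassical monocytes, which patrol the vessel wall, were the gate in which a member passed the rule between antibodies. Their Cd274 level was 190, 144 and 169 CPM in the IgG1 mice and 315, 396 and 318 CPM in the ipilimumab mice, with no overlap, as for 8.8% of the genes tested there in the same direction. The log2 fold change was 1.01 (SE 0.16, edgeR adjusted p = 0.0398), and Cd274 was 1 of 4 genes called of 7102 (0.0563%). After thinning, 32.2%, 18.5% and 23.9% of the cells of IgG1 mice and 40.4%, 41.6% and 34.1% of those of ipilimumab mice held a Cd274 UMI. The other genes called were Spred1 (1.05) and Cd9 (0.99), both higher, and the MHC class II gene H2-Ab1 (-1.81), which was lower.

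The call was lost under several other settings. The gate held 59, 83 and 88 cells in the IgG1 mice and 115, 154 and 84 in the ipilimumab mice. Classical monocyte markers (Ly6c2, Ccr2, F13a1) summed to 431 to 587 CPM in the nonclassical monocytes of IgG1 mice and 67.6 to 287 CPM in those of ipilimumab mice, and classical monocytes had little Cd274 (17.7 to 44.8 CPM). With every cell that held a UMI of these markers left out, an alternative chosen after seeing the data, 398 cells remained. In these Cd274 was 325, 301 and 250 CPM against 389, 442 and 434 CPM. The groups did not overlap, but the share of all genes without overlap was not computed for these cells. The log2 fold change was 0.54 (SE 0.17, adjusted p = 0.572) and was not called (1 of 5535 genes, 0.0181%). The call was also lost without IgG1 replicate 1 (1.10, adjusted p = 0.245), without IgG1 replicate 2 (0.94, adjusted p = 0.304) and without ipilimumab replicate 2 (0.90, adjusted p = 0.12). It was kept without ipilimumab replicate 1 (1.08, adjusted p = 0.0275).

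The effect on Cd274 was compared directly with that in other myeloid gates. It was 0.93 higher in nonclassical monocytes than in alveolar macrophages on the log2 scale (SE 0.18, adjusted p = 0.0592), just outside the rule, where 10 of 11370 genes were called (0.088%). It passed the rule without ipilimumab replicate 1 (1.0, adjusted p = 0.0149) and without ipilimumab replicate 3 (0.97, adjusted p = 0.0117). Against classical monocytes, where Cd274 was 18.1, 44.8 and 23.5 CPM in the IgG1 mice and 33.1, 17.7 and 33.0 CPM in the ipilimumab mice, the difference was 1.02 (SE 0.42, adjusted p = 0.503; 3 of 7415 genes called, 0.0405%), and 0.44 without IgG1 replicate 2.

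Endothelium showed a similar difference in Cd274. The 939 cells of the gate had 82.9, 62.5 and 70.7 CPM in the IgG1 mice and 183, 171 and 138 CPM in the ipilimumab mice, with no overlap, as for 6.85% of the genes tested. The log2 fold change was 1.18 (SE 0.20, unadjusted p = 3.49e-05), and with the adjustment over 8011 genes, of which 0 were called (0%; 775 with an unadjusted p under 0.05), p was 0.115. DESeq2 gave 1.19 with an adjusted p of 0.00621 and called 40 genes. After thinning, 12.8%, 9.62% and 12.3% of the cells of IgG1 mice held a UMI against 24.5%, 23.5% and 21.1% of those of ipilimumab mice. The effect in endothelium was 1.16 higher than in alveolar macrophages (SE 0.25, adjusted p = 0.263; 0 of 12828 genes called, 0%), and it passed the rule without ipilimumab replicate 3 (1.24, adjusted p = 0.0486).

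The endothelial difference was seen in both of its divisions. Aerocytes, the capillary cells marked by Car4 and Ednrb, had 91.0, 59.8 and 74.5 CPM against 165, 157 and 155 CPM (log2 fold change 1.03, SE 0.22, adjusted p = 0.168), and other endothelium had 76.9, 65.8 and 63.1 CPM against 197, 179 and 127 CPM (1.28, SE 0.27, adjusted p = 0.345). Neither set overlapped, as for 6.76% and 6.03% of the genes tested, and 0 of 5990 and 0 of 6071 genes were called (0% in each; 438 and 408 with an unadjusted p under 0.05). Pan-myeloid markers summed to 69.2 to 112 CPM in the endothelium of IgG1 mice and 138 to 932 CPM in that of ipilimumab mice. Without the cells that held a UMI of these markers, chosen after seeing the data, Cd274 was 54.3, 55.7 and 66.7 CPM against 180, 158 and 127 CPM. The log2 fold change was then 1.43 (SE 0.24, edgeR adjusted p = 0.0345), and Cd274 was 1 of 4 genes called of 6574 (0.0608%).

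In cDC2, the conventional dendritic cells marked by Cd209a, Clec10a and Flt3, the counts were small. There were 4, 14 and 0 UMIs of Cd274 in the IgG1 mice and 37, 31 and 49 in the ipilimumab mice, or 17.7, 30.9 and 0 CPM against 104, 82.7 and 96.1 CPM. The groups did not overlap (4.57% of genes tested), and the log2 fold change was 2.23 (SE 0.51, adjusted p = 1; 0 of 5034 genes called, 0%, and 216 with an unadjusted p under 0.05). It was 3.17 without IgG1 replicate 2. All of these UMIs came from at most 9 cells per mouse. Cd274 passed the filter on low counts here through the ipilimumab mice alone, so its fold change is no support by itself. Alveolar macrophage markers summed to 172, 322 and 6.18 CPM in the cDC2 of IgG1 mice and 446, 291 and 286 CPM in those of ipilimumab mice, and their part in the result was not tested.

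**Figure D4:**
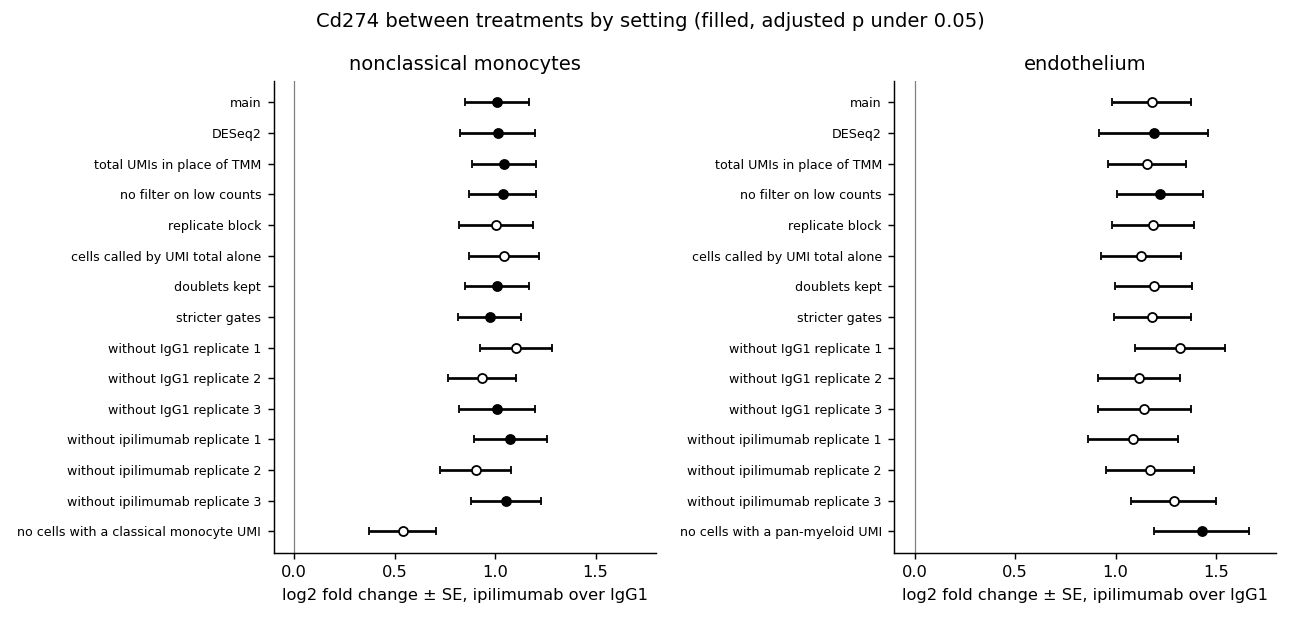
Log2 fold change of Cd274 between antibodies (ipilimumab over IgG1) with its SE under each way of processing, filled where the adjusted p was under 0.05. The value stays above 0 in each panel, while in nonclassical monocytes it falls to 0.54 without cells that hold a classical monocyte marker, and in endothelium it rises to 1.43 without cells that hold a pan-myeloid marker.

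Pdcd1lg2 was low and scattered. Mature dendritic cells led with 29.7, 93.6 and 6.72 CPM in the IgG1 mice and 27.9, 28.5 and 185 CPM in the ipilimumab mice, a spread that came from 1 to 77 UMIs per mouse. Foxp3 T cells were next with 16.3, 39.3 and 24.4 CPM against 35.4, 49.3 and 59.2 CPM. The ambient RNA held 9.46 to 23.0 CPM, within the range of these gates. In nonclassical monocytes it was 17.3, 21.9 and 16.9 CPM against 22.2, 59.7 and 21.7 CPM (log2 fold change 0.89, SE 0.40, adjusted p = 0.516), where ipilimumab replicate 2 was far above the other mice.

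In NK cells every ipilimumab mouse (21.2, 19.7 and 25.1 CPM) was above every IgG1 mouse (16.6, 7.87 and 17.5 CPM) for Pdcd1lg2, as for 5.19% of the genes tested, and the log2 fold change of 0.69 (SE 0.30, adjusted p = 0.823) was not called. In the T cells without coreceptor UMIs the order was the reverse, with 7.11, 8.77 and 9.99 CPM in the ipilimumab mice below 13.5, 11 and 16.0 CPM in the IgG1 mice, as for 7.39% of the genes tested there. Cd4 T cells overlapped, at a log2 fold change of 0.70 (SE 0.36, adjusted p = 0.833).

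More members passed the rule between gates of the same mice. Against Cd4 T cells, Foxp3 T cells had more Tox (1.31, SE 0.08, adjusted p = 1.63e-09), Tigit (1.43, SE 0.27, adjusted p = 0.00106), Cd274 (0.81, SE 0.17, adjusted p = 0.00208) and Pdcd1lg2 (1.64, SE 0.28, adjusted p = 3.44e-04), all as log2 fold changes with mouse as a block. Thus 4 of 5 members tested were called higher, where 5.93% of 7956 genes were, and Pdcd1 was not (0.87, SE 0.32, adjusted p = 0.105). Cd8 T cells had less Tox (-1.73, SE 0.09), Tigit (-0.53, SE 0.14, adjusted p = 0.00926) and Pdcd1lg2 (-0.73, SE 0.25, adjusted p = 0.0361) than Cd4 T cells. That was 3 of 6 members tested, where 12.1% of 9563 genes were called lower, and Pdcd1 (-0.39, SE 0.23, adjusted p = 0.214) and Cd274 (-0.24, SE 0.09, adjusted p = 0.0543) were not called. DESeq2 called only Tox of these. The call of Pdcd1lg2 was also lost without ipilimumab replicate 2 or 3, and Pdcd1 passed the rule without IgG1 replicate 2 here and without IgG1 replicate 1 in Foxp3 against Cd4 T cells. Cd274 passed it here without ipilimumab replicate 3 (-0.31, adjusted p = 0.0208).

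Among myeloid gates, nonclassical monocytes had more Cd274 (2.92, SE 0.22, adjusted p = 3.23e-08), Pdcd1lg2 (2.84, SE 0.31, adjusted p = 1.99e-06) and Havcr2 (1.48, SE 0.13, adjusted p = 1.23e-07) than classical monocytes. These were the 3 members tested, where 21.8% of 6621 genes were called higher. Pdcd1lg2 was at 1.74 to 7.60 CPM in classical monocytes and passed the filter on low counts through the nonclassical monocytes alone. Mature dendritic cells had more Cd274 than cDC2 (3.0, SE 0.51, adjusted p = 0.00139), 1 of 2 members tested, where 16.3% of 4141 genes were called higher. Interstitial macrophages had less Cd274 than alveolar macrophages (-0.94, SE 0.17, adjusted p = 2.84e-04), 1 of 3 members tested, where 13.2% of 10276 genes were called lower, and Havcr2 (-0.29, SE 0.17, adjusted p = 0.243) and Pdcd1lg2 (-1.09, SE 0.58, adjusted p = 0.187) were not. Aerocytes and other endothelium differed in 44.2% of 5891 genes, and Cd274, the 1 member tested, was not among those called.

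**Figure D5:**
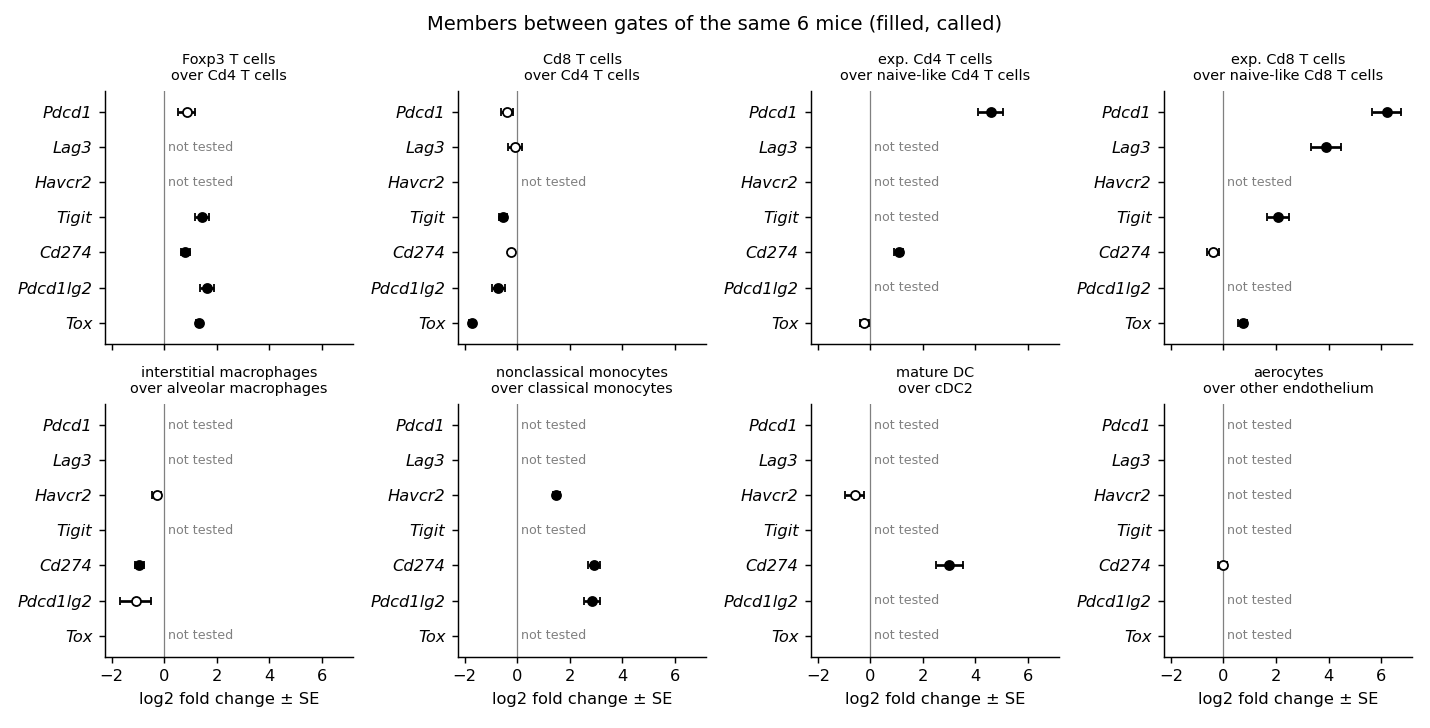
Log2 fold change of each member tested between gates of the same 6 mice, with its SE, filled where called. Pdcd1 has the largest values, 6.21 and 4.57 in antigen-experienced over naive-like Cd8 and Cd4 T cells, and Tox is higher in Foxp3 (1.31) and lower in Cd8 (-1.73) than in Cd4 T cells.

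Genes around the members were taken from 5 lists. These were PD-1 signalling (7 genes), transcription factors that act with Tox (14), the path from interferon gamma to PD-L1 (8), further inhibitory receptors (10) and ligands of inhibitory receptors (10). Between antibodies none of their members was called in any gate, where at most 0.269% of all genes were. In nonclassical monocytes 4 of 7102 genes (0.0563%) and in endothelium 0 of 8011 (0%) were called. With so few calls, the counts do not tell whether the listed genes changed. The interferon gamma list had a median log2 fold change of -0.02 in nonclassical monocytes, against -0.01 over all genes. In endothelium it was 0.18 against -0.02. Between gates they moved with the checkpoint genes in part. In Cd8 against Cd4 T cells, 3 of the 14 Tox-associated factors tested were higher, among them Eomes (2.88), and 10 were lower, among them Tox2 (-3.50), a relative of Tox, and Maf (-3.28), with a list median of -0.61 against 0.02 over all genes, of which 10.7% were higher and 12.1% lower. In Foxp3 against Cd4 T cells 4 of 13 were higher, among them Prdm1 (1.30) and Tox2 (1.21), and 2 were lower, among them Tbx21 (-2.45), where 5.93% of all genes were higher and 4.19% lower.

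In antigen-experienced against naive-like cells, 9 of 12 Tox-associated factors tested were higher and 1 lower among Cd4 T cells (median 1.5 against -0.01 over all genes), and 7 of 10 higher and 1 lower among Cd8 T cells (median 1.22 against -0.02). Of all genes, 16.9% were higher and 13.2% lower among Cd4 T cells, and 12.9% higher and 12.2% lower among Cd8 T cells, which are the shares for the other lists of these 2 comparisons too. Tbx21, which drives the effector program, had the largest value in both (5.46 and 5.80). PD-1 signalling genes were higher for 5 of 7 and 6 of 7 tested, with Zap70, the kinase below the T cell receptor, at 1.16 and 1.06, and Cd247, the zeta chain of the receptor complex, was lower among Cd8 T cells (-1.15). Of the genes listed as further inhibitory receptors, Klrg1 (7.67), Entpd1 (5.75) and Cd160 (3.76) were higher among Cd8 T cells, 3 of 7 tested. Of these, Entpd1 encodes an enzyme of the cell surface and not a receptor. In nonclassical against classical monocytes, 2 of 7 genes from interferon gamma to PD-L1 were higher, the factor Irf1 (0.69) and the receptor chain Ifngr2 (0.43), and 1 was lower, Cmtm6 (-0.73), which protects PD-L1 from degradation. These counts are near the shares of all genes, 21.8% higher and 22.9% lower.

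The genes whose mean log2(CPM + 1) over the 17 gates followed each member most closely were read from 12699 genes. They were Trat1 (Pearson r = 0.987), Gm11579 (0.979) and Traj12 (0.976) for Pdcd1, Trbc1 (0.957), Lck (0.956) and Sla2 (0.955) for Tigit, and Trbc1 (0.976), Cd28 (0.972) and Cd27 (0.965) for Tox. Most of these are T cell genes. For Havcr2 they were E230029C05Rik (0.950), Tkt (0.947) and Nlrp1b (0.936), and for Pdcd1lg2 Rhof (0.902), Tmem8 (0.900) and Dapp1 (0.889). The closest genes were less close for Lag3, which were Ptprf (0.884), Mid1 (0.879) and Gprc5b (0.812), and for Cd274, which were Esrra (0.787), Myh9 (0.785) and L1cam (0.769). The gates share the same 6 libraries, so these are descriptions of level by cell type without a test.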

How the data were processed

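The deposited values are counts of UMIs for all barcodes of each library, with or without a cell, which the authors made by aligning the reads to mm10 with Cell Ranger (version 7.0.0 in the submitters' processing notes, another version in the file header and in the study's methods), before correction for ambient RNA, filtering and clustering. Whether intronic reads were counted is not given in the sources used here. The libraries held 37666042 to 48612412 UMIs.

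A barcode counted as a cell if it had 10% or more of the UMIs at the 99th percentile of the top 5000, or if it had at least 500 UMIs and a profile unlike the ambient RNA, taken from the barcodes ranked 45000 to 90000 (false discovery rate 0.01). Barcodes with fewer than 200 genes or over 10% mitochondrial UMIs were removed, and the highest doublet scores against simulated doublets were removed at 0.8% per 1000 cells. A gate needed at least 2 markers and 3 UMIs of its list (T cells, 2 UMIs; a further marker of the naive-like list is not reported here), and cells that passed gates of several lineages (1320) or of none (1161) were left out. Gate sums per mouse were tested with the edgeR 4.0.16 quasi-likelihood test in R 4.3.3 (TMM, filterByExpr, mouse as a block between gates), adjusted by Benjamini-Hochberg over all genes tested. A mouse with fewer than 5 cells in a gate was left out. SEs were derived from the log2 fold change and its F statistic. CPM in the text are divided by total UMIs alone. Shares were compared between antibodies by exact two-sided permutation tests of the values per mouse. Co-detection was tested by exact two-sided permutation of the signs of the within-mouse differences. Both were written in Python 3.11.15 with numpy 2.4.6. The mice were separate animals, and p-values between antibodies within a gate measure the spread between them. Those between gates, of differences of effects and of co-detection measure the spread of differences within mice. The scripts were tested on simulated counts.

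Besides the members, the genes named are up to 3 called genes per list and comparison with the largest absolute log2 fold change, the genes called between antibodies, and the 3 genes closest in pattern to each member among those with at least 10 CPM in a gate. The members and lists were chosen with earlier results of these data known. Alternatives were DESeq2 1.42.0, total UMIs in place of TMM, no filter, the replicate number as a block, other cell calling, doublets kept, stricter gates, other thinning and each mouse left out.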

Additional observations from a re-analysis of the deposited data

How the results depend on the processing

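Of 65 single values recomputed, 64 kept their direction under each alternative run and 47 also their side of the rule. The exception in direction was the effect on Pdcd1 in Cd8 minus that in Cd4 T cells, from -0.79 to 0.47 with 1 mouse left out. Counts of members called between antibodies moved as follows, and the causes were not tested. With no filter on low counts 1 member was called in Cd4 T cells, in T cells without coreceptor UMIs, in cDC2 and in the difference of effects between Cd8 and Cd4 T cells, 1 in aerocytes, and 2 in endothelium and in other endothelium, against 0 each. DESeq2 called 1 in endothelium, as did the gate without cells that hold a pan-myeloid marker. In nonclassical monocytes the 1 call became 0 with cells called by UMI total alone (Cd274 log2 fold change 1.04, adjusted p = 0.0612) and without cells that hold a classical monocyte marker. With 1 mouse left out the count ran from 0 to 1 there, in Cd4 T cells, and in the differences of effects between alveolar macrophages and nonclassical monocytes or endothelium.

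The replicate numbers do not pair the mice: deviations of mice with the same number correlated at -0.182 to 0.177 over all gates, and the labels give no pairing. With the replicate number as a block, 0 members were called in nonclassical monocytes (Cd274 1.0, adjusted p = 0.074), and no other count of members changed.

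Between gates, DESeq2 called 1 member in Cd8 against Cd4 T cells where edgeR called 3, 6 in antigen-experienced against naive-like Cd4 T cells where edgeR called 2, 2 in mature dendritic cells against cDC2 where edgeR called 1, and 1 in aerocytes against other endothelium where edgeR called 0. Its median over all genes was 0.39 on the log2 scale for the Cd4 pair. With no filter these were 7 for the Cd4 pair, 2 for the dendritic cells and 1 for endothelium. Stricter gates gave 1 for the Cd4 pair, 2 for the Cd8 pair, where 4 were called, and 2 for the dendritic cells. With 1 mouse left out the ranges were 2 to 4 (Cd4 pair, 4 without ipilimumab replicate 1), 2 to 4 (Cd8 pair, 2 without ipilimumab replicate 1) and 1 to 2 (dendritic cells, 2 without IgG1 replicate 3). Pairs of gate and member whose shares of T cells did not overlap between antibodies were 4, and 2 after thinning to 1000 UMIs, which were other pairs (Pdcd1 in Foxp3 T cells, Cd274 in T cells without coreceptor UMIs). Pairs with Pdcd1 at the smallest exact p were 2, and 6 in unthinned cells, among them Lag3 in Cd8 T cells.

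Depth limits what can be said of rare members: Lag3 had 86 UMIs and Havcr2 49 in all Cd8 T cells. Aerocytes, mature dendritic cells, the antigen-experienced gates, 3 differences of effects and the 2 gates without marker-bearing cells were chosen after seeing the data.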
